A study of Mus musculus with 12 samples.

Results

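TXNIP, the alpha-arrestins ARRDC1 to ARRDC4 and the glucose-sensing transcription factor pair ChREBP and MLX were followed in the livers of mice given iron and a synthetic glucocorticoid. The 7 genes Txnip, Arrdc1, Arrdc2, Arrdc3, Arrdc4, Mlxipl (which encodes ChREBP) and Mlx were chosen by name, by matching the Ensembl identifiers of the count table to these symbols, and they are 7 of the 55414 genes in the table. All 7 passed the filter on low counts that left 13857 genes for testing. Female C57Bl/6J mice, aged 8 to 12 weeks and with no altered gene, received 0.9% NaCl or 300 mg/kg FeSO4 intraperitoneally, then PBS or 10 mg/kg dexamethasone (DEX, a selective ligand of the glucocorticoid receptor) 6 h later, and livers were taken after another 2 h. The 4 groups are named NaCl/PBS, NaCl/DEX, FeSO4/PBS and FeSO4/DEX, with 3 mice and therefore 3 libraries each. RNA came from whole liver, so fewer cells of a type and less RNA per cell cannot be told apart.

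Alpha-arrestins are adaptor proteins with an arrestin fold that bring ubiquitin ligases of the NEDD4 family to membrane proteins, which are then internalized and degraded. TXNIP, the best known of them, also binds thioredoxin, and both TXNIP and ARRDC4 lower glucose uptake by removing glucose transporters from the cell surface. In liver, ChREBP with its partner MLX binds carbohydrate response elements, pairs of E-boxes with a short spacer, when glucose metabolites accumulate, and Txnip and Arrdc4 are textbook targets of this pathway.

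In GRCm39, Txnip lies on chromosome 3 (96465267 to 96469201, plus strand), Arrdc4 on chromosome 7 (68386742 to 68398999, minus strand) and Arrdc2 on chromosome 8 (71287770 to 71292364, minus strand). Arrdc1 lies on chromosome 2 (24815286 to 24825338), Arrdc3 on chromosome 13 (81031409 to 81044161), Mlxipl on chromosome 5 (135118744 to 135168615) and Mlx on chromosome 11 (100978080 to 100983043). The sequences just upstream of 3 of the alpha-arrestin genes are shown because Txnip responded to iron, Arrdc2 to DEX and Arrdc4 to both. Each covers the 250 bases before the 5′ end of the canonical transcript in GRCm39, which for these 3 is also the end of the gene, written 5′ to 3′ on the gene's strand, and capitals mark matches to the motifs named next.
Txnip, chr3:96465017-96465266, plus strand: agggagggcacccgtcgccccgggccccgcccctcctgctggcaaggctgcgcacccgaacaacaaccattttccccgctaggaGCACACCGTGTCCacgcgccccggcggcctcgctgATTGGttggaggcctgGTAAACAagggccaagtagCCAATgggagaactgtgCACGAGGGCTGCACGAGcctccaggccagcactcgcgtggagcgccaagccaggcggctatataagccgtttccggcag
Arrdc4, chr7:68399000-68399249, minus strand: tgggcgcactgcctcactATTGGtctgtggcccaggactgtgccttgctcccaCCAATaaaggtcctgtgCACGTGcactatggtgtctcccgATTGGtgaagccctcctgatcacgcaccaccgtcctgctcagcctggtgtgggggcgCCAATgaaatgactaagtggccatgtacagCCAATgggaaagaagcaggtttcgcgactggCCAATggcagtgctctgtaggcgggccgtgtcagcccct
Arrdc2, chr8:71292365-71292614, minus strand: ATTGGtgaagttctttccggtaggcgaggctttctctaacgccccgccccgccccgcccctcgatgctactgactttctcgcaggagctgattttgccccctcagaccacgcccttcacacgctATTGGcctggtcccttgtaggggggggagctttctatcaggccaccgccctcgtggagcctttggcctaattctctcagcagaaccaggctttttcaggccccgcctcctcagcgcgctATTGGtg

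Both strands were searched for the E-box CACGTG, the carbohydrate response element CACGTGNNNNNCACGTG, the glucocorticoid response element (GNACA and TGTNC with any 3 bases between them), the forkhead motif GTAAACA and the CCAAT box CCAAT. An E-box is part of a carbohydrate response element, so these matches can overlap. Among 21603 upstream windows of protein-coding genes of the same length, 6.3% held an E-box, 0.301% an exact glucocorticoid response element, 2.74% a forkhead motif and 36.3% a CCAAT box. No window held an exact carbohydrate response element, and 0.782% held one with up to 2 mismatches, a tolerance chosen after the sequences had been seen.

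For Arrdc3, Mlx and Mlxipl the canonical transcript starts inside the annotated gene, so their windows lie partly (Arrdc3, Mlx) or wholly (Mlxipl) within it. The Txnip window held an exact glucocorticoid response element at -166 to -154, a forkhead motif at -115 to -109, a carbohydrate response element with up to 2 mismatches at -79 to -63 and 2 CCAAT boxes. The Arrdc4 window held 1 E-box at -180 to -175 and 6 CCAAT boxes. In 0.0648% of the windows 6 or more CCAAT boxes occurred, a cutoff equal to the number seen in Arrdc4. Arrdc2 had 3 CCAAT boxes and no exact or 1-mismatch glucocorticoid response element, Arrdc3 had 1 CCAAT box, Mlx had 1 E-box and 2 CCAAT boxes, and Arrdc1 and Mlxipl had none of the motifs. A match is a description of letters only, and a missing match says nothing about binding outside the window.

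**Figure D1:**
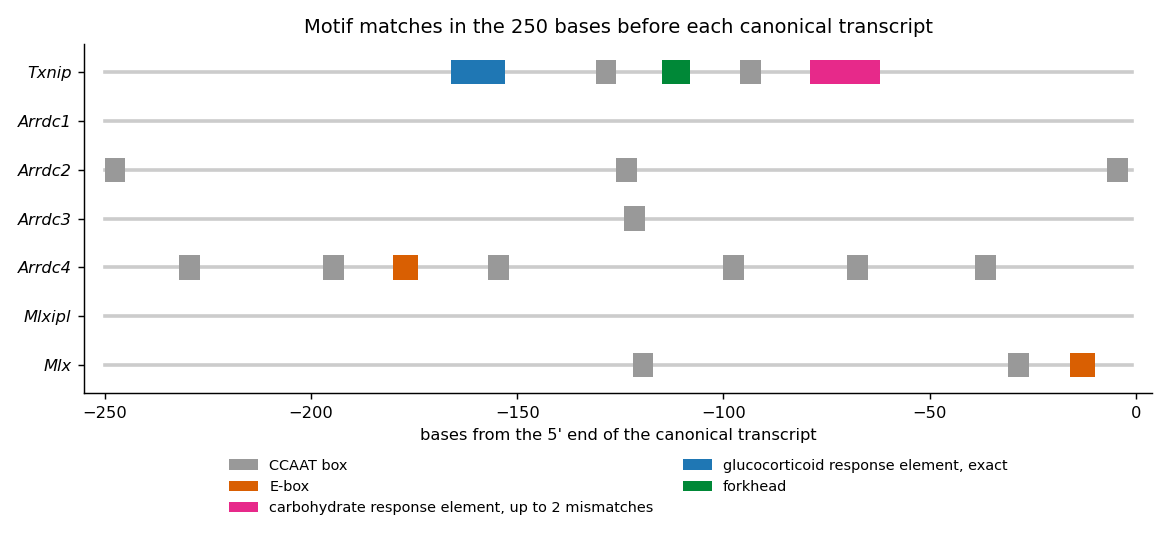
Motif matches in the 250 bases before the canonical transcript of each of the 7 genes, drawn to scale with the distance in bases from its 5′ end on the horizontal axis and each motif in its own color. The exact glucocorticoid response element lies in the Txnip window alone among the 7, and the Arrdc4 window holds 6 CCAAT boxes and 1 E-box.

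The libraries held between 16335651 and 23827340 counted reads, with a median of 19602514. FeSO4/PBS mouse 1 stood apart from the other FeSO4/PBS mice, with a chi-square per gene of 89.5 and 71.4 against a lowest value of 18.3 between mice of one group. Values without it are given beside the results it moved most. The scaling of the libraries moved with the treatment: the median log2 fold change (LFC) of all tested genes for FeSO4 was -0.02 after TMM normalization and -0.34 after scaling by library size alone, under which 2285 genes were upregulated and 5829 downregulated, against 3770 and 3783 after TMM. In DEX treated NaCl mice the corresponding numbers were 618 and 1776, against 901 and 991, in the FeSO4 comparison among DEX mice 2151 and 4146, against 3103 and 2902, and for the difference between the DEX effects 575 and 327, against 414 and 443.

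**Figure D2:**
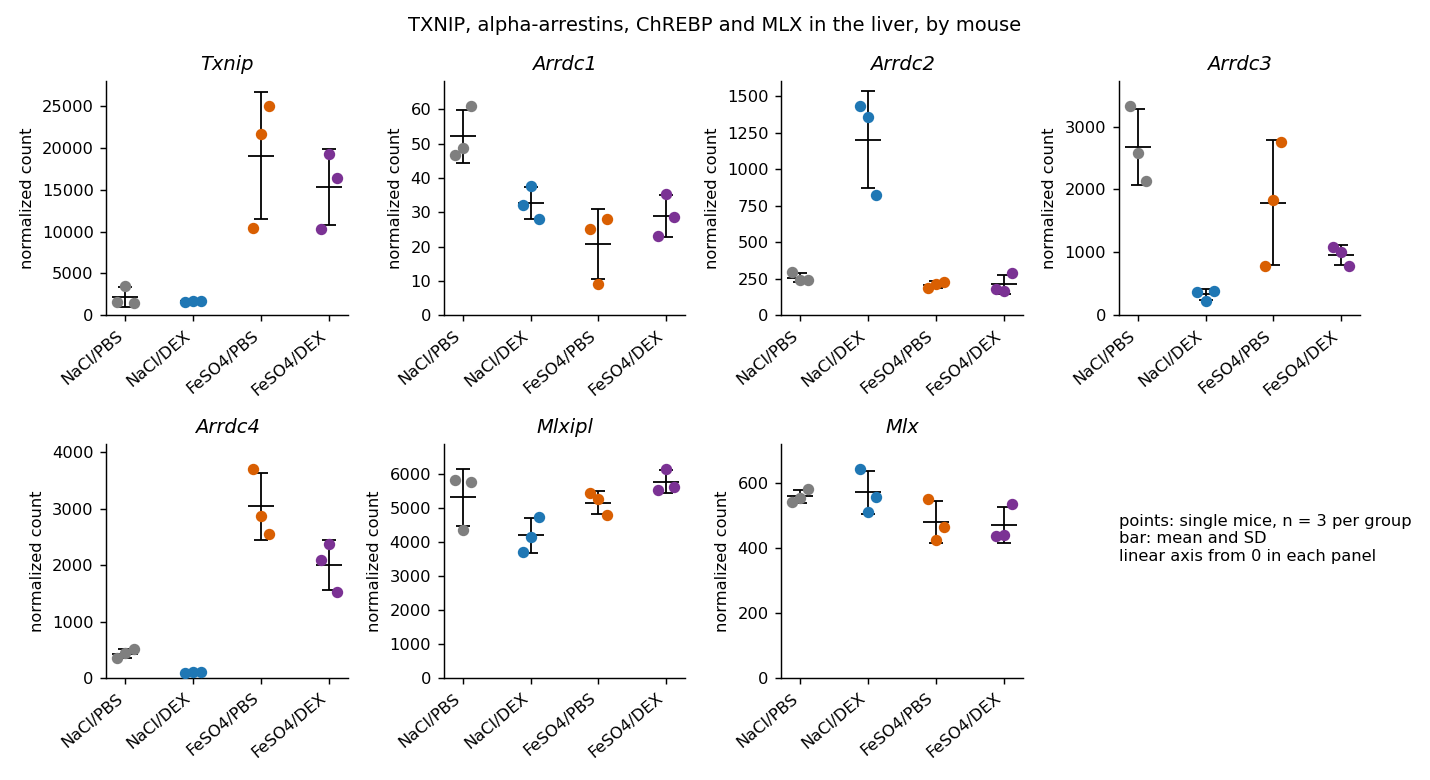
Normalized counts of the 7 genes in the liver of each mouse, with 1 point per mouse (n = 3 per group), a bar for the mean and its SD, and a linear axis from 0 in every panel. Txnip and Arrdc4 stand high in all 6 FeSO4 mice, Arrdc2 stands high in the 3 NaCl/DEX mice, Arrdc3 is lowest in NaCl/DEX, and Mlxipl and Mlx stay within a narrow range.

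Iron raised Txnip, the thioredoxin-binding alpha-arrestin, whether or not DEX followed. Its normalized counts (reads scaled to a common library size) were 1615, 3546 and 1412 in the 3 livers of the NaCl/PBS group and 1603, 1746 and 1756 with NaCl/DEX. They were 10483, 21723 and 25012 in the FeSO4/PBS mice and 10376, 19308 and 16450 in the FeSO4/DEX mice. Every FeSO4 mouse therefore lay above every NaCl mouse, while the PBS and DEX mice overlapped within either pretreatment. The LFC of FeSO4/PBS against NaCl/PBS was 3.12 (SE 0.375, 95% confidence interval 2.32 to 3.93, 8.71-fold), with a false discovery rate (FDR) of 1.2e-05 in edgeR's quasi-likelihood test with Benjamini-Hochberg adjustment over all tested genes, as in every FDR that follows. Without FeSO4/PBS mouse 1, the lowest of its group, the LFC was 3.42. In DEX mice FeSO4 changed Txnip by an LFC of 3.18 (SE 0.376, FDR = 1.5e-05 in edgeR).

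DEX itself left no detectable mark on Txnip. The LFC was -0.36 in NaCl mice (95% confidence interval -1.11 to 0.38, edgeR FDR = 0.56) and -0.31 in FeSO4 mice (-1.05 to 0.43, edgeR FDR = 0.89), and the difference between them was 0.05 (SE 0.49, edgeR FDR = 0.97). The sign of the first value rests on NaCl/PBS mouse 2, the highest of its group, without which it was 0.18. The second was -0.63 without FeSO4/PBS mouse 1 and -0.075 without FeSO4/PBS mouse 3.

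A non-coding antisense gene, Gm15441, covers all 3935 bases of Txnip on the opposite strand. It was counted at 1 to 6 reads per NaCl/PBS library, 1 to 2 per NaCl/DEX library, 19 to 55 per FeSO4/PBS library and 24 to 32 per FeSO4/DEX library. Iron upregulated it in PBS mice (LFC = 3.70, SE 0.566, edgeR FDR = 9.6e-05) and in DEX mice (LFC = 4.41, SE 0.678, edgeR FDR = 0.00014), so it moved with Txnip. Its normalized count was between 0.0539% and 0.298% of that of Txnip in a library. The kit keeps the strand, but the strand setting of the counting was not given in the sources used here, and without it reads of the 2 genes cannot be told apart. The other antisense neighbors held at most 14 reads in a library: 1700023H06Rik over Arrdc3, Gm43500 over Mlxipl and Psmc3ip over Mlx.

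Arrdc4, a close paralog of Txnip that likewise limits glucose uptake, responded to both treatments in opposite directions. Its normalized counts were 348.1, 436.7 and 507.9 in NaCl/PBS and fell to 84.8, 100.6 and 98.7 in NaCl/DEX. They rose to 3710, 2879 and 2557 in FeSO4/PBS and stood at 2098, 2382 and 1520 in FeSO4/DEX. The 4 groups did not overlap with each other. FeSO4 upregulated Arrdc4 in PBS mice with an LFC of 2.82 (SE 0.194, 7.08-fold, edgeR FDR = 8.9e-08; 2.66 without FeSO4/PBS mouse 1) and in DEX mice with an LFC of 4.40 (SE 0.216, 21.1-fold, edgeR FDR = 1.8e-08). DEX downregulated it 4.54-fold in NaCl mice (LFC = -2.18, SE 0.206, edgeR FDR = 1.2e-05).

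In FeSO4 mice the DEX difference of Arrdc4 was smaller and did not pass the threshold over all genes (LFC = -0.61, SE 0.18, edgeR FDR = 0.7), although the 2 groups did not overlap and the unadjusted edgeR p was 0.0045. The difference between the DEX effects, tested as an interaction, was 1.57 (SE 0.271, edgeR FDR = 0.0036).

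Arrdc3, an adaptor that directs cell surface receptors to ubiquitination, was repressed by DEX in NaCl mice, with no detected change by iron alone. Its normalized counts were 3326, 2574 and 2130 in NaCl/PBS and 372.5, 232.2 and 392.7 in NaCl/DEX. In FeSO4/PBS they spread over 784.2, 1830 and 2760, and in FeSO4/DEX they were 1078, 1009 and 786.0. The NaCl/DEX mice were the lowest of all 12, and the FeSO4/PBS mice overlapped both the NaCl/PBS and the FeSO4/DEX mice. DEX downregulated Arrdc3 8.06-fold in NaCl mice (LFC = -3.01, SE 0.362, edgeR FDR = 7.9e-05).

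In FeSO4 mice the LFC of Arrdc3 for DEX was -0.90 (95% confidence interval -1.62 to -0.18, edgeR FDR = 0.73), which became -1.28 without FeSO4/PBS mouse 1 and -0.46 without FeSO4/PBS mouse 3. The interaction was 2.11 (SE 0.481, edgeR FDR = 0.018), and 1.71 without FeSO4/PBS mouse 1 (edgeR FDR = 0.0061). Without NaCl/PBS mouse 1 the interaction was 1.91, with an edgeR FDR of 0.053. The effect of FeSO4 in PBS mice was -0.58 (SE 0.332, edgeR FDR = 0.15), which became -0.22 without FeSO4/PBS mouse 1 and -1.03 (edgeR FDR = 0.016) without FeSO4/PBS mouse 3. Among DEX mice, where the repressed NaCl/DEX group is the reference, FeSO4 mice were 2.88-fold higher (LFC = 1.53, SE 0.349, edgeR FDR = 0.0029).

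Arrdc2, a further adaptor of the family, was induced by DEX in NaCl mice, and no such change was detected after iron. Its normalized counts were 293.5, 241.2 and 238.7 in NaCl/PBS and 1433, 1357 and 822.6 in NaCl/DEX. They were 183.4, 215.7 and 230.8 in FeSO4/PBS and 182.7, 164.5 and 288.9 in FeSO4/DEX. The 3 NaCl/DEX mice stood above all others, and the FeSO4/DEX mice overlapped the FeSO4/PBS mice. DEX upregulated Arrdc2 4.66-fold in NaCl mice (LFC = 2.22, SE 0.225, edgeR FDR = 2e-05). In FeSO4 mice the LFC was 0.02, with a 95% confidence interval of -0.48 to 0.52 (edgeR FDR = 0.99), and the interaction was -2.20 (SE 0.321, edgeR FDR = 0.0012). Iron by itself gave an LFC of -0.30 (edgeR FDR = 0.28), and among DEX mice FeSO4 mice were 5.67-fold lower (LFC = -2.50, SE 0.231, edgeR FDR = 1.7e-06).

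Fkbp5 and Tsc22d3, classical target genes of the glucocorticoid receptor and no members of the family, are given for comparison. DEX raised them by an LFC of 2.24 (SE 0.292, edgeR FDR = 0.00014) and 1.68 (SE 0.171, edgeR FDR = 2.2e-05) in NaCl mice. In FeSO4 mice the values were -0.19 (edgeR FDR = 0.92) and 0.24 (edgeR FDR = 0.83), and both interactions passed, at -2.43 (edgeR FDR = 0.0026) and -1.44 (edgeR FDR = 0.0032). The list of 4 such genes had 3 upregulated and none downregulated by DEX in NaCl mice, with a median LFC of 1.35. FeSO4 in PBS mice upregulated 3 and downregulated 1, with a median of 0.94. Over all tested genes, 13.7% were called for DEX in NaCl mice and 54.5% for FeSO4 in PBS mice. Scaling by library size alone gave 2 up for DEX and 1 up and 1 down for FeSO4. Of the 4 genes, 2 passed the interaction, Fkbp5 and Tsc22d3, both downward, against 6.18% of all tested genes. Zbtb16 (-0.84, edgeR FDR = 0.28) and Per1 (-0.06, edgeR FDR = 0.92) did not. Per1 was also not called for DEX in NaCl mice (LFC = -0.02, edgeR FDR = 0.96). FeSO4 in PBS mice moved the 2 named genes in opposite directions, Fkbp5 by 0.89 (edgeR FDR = 0.016) and Tsc22d3 by -1.86 (edgeR FDR = 1.5e-06).

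Arrdc1, which helps to bud vesicles from the plasma membrane, was the weakest expressed and fell with iron. Its normalized counts were 46.8, 48.6 and 60.9 in the NaCl/PBS livers and 32.2, 37.6 and 28.2 with NaCl/DEX. After iron they were 25.2, 9.16 and 28.1 with PBS and 23.2, 35.3 and 28.5 with DEX. The highest FeSO4/PBS mouse was still below the lowest NaCl/PBS mouse. FeSO4 downregulated Arrdc1 2.52-fold in PBS mice (LFC = -1.33, SE 0.352, edgeR FDR = 0.0054). The LFC was -1.52 without FeSO4/PBS mouse 1 and -0.965 without FeSO4/PBS mouse 2, the lowest of its group. DEX in NaCl mice gave an LFC of -0.67 without overlap of the groups (SE 0.333, edgeR FDR = 0.22), and among DEX mice FeSO4 gave -0.18 (edgeR FDR = 0.71).

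Transcripts of the 2 transcription factors moved little. Mlxipl stood at 5830, 4350 and 5783 normalized counts in the NaCl/PBS livers and 3699, 4148 and 4748 with NaCl/DEX. After iron it stood at 5446, 5264 and 4794 with PBS and 5551, 6163 and 5631 with DEX. The FeSO4/DEX mice lay above the NaCl/DEX mice, 1.38-fold (LFC = 0.46, SE 0.133, edgeR FDR = 0.012), a call that was lost without FeSO4/DEX mouse 2 (LFC = 0.38, edgeR FDR = 0.067), without NaCl/DEX mouse 1 (LFC = 0.38, edgeR FDR = 0.062) or after scaling by library size alone (LFC = 0.26, edgeR FDR = 0.11). The effect of FeSO4 in PBS mice was -0.04, with a 95% confidence interval of -0.33 to 0.24 (edgeR FDR = 0.81), and that of DEX in NaCl mice was -0.34 (edgeR FDR = 0.11).

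Mlx, the dimer partner of ChREBP, ranged from 541.6 to 583.2 in the NaCl/PBS livers and from 513.4 to 645.1 with NaCl/DEX. After iron it ranged from 425.2 to 551.4 with PBS and from 436.9 to 536.3 with DEX. No contrast of Mlx passed the threshold with all libraries and TMM. The LFC was -0.22 for FeSO4 in PBS mice (95% confidence interval -0.50 to 0.06, edgeR FDR = 0.17) and 0.03 for DEX in NaCl mice (-0.25 to 0.31, edgeR FDR = 0.92). Without FeSO4/PBS mouse 1 the FeSO4 value was -0.33 (edgeR FDR = 0.04). Among DEX mice FeSO4 gave -0.28 (edgeR FDR = 0.098), which passed without FeSO4/PBS mouse 1 (-0.32, edgeR FDR = 0.03), without FeSO4/DEX mouse 3 (-0.41, edgeR FDR = 0.035) and after scaling by library size alone (-0.47, edgeR FDR = 0.0073).

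**Figure D3:**
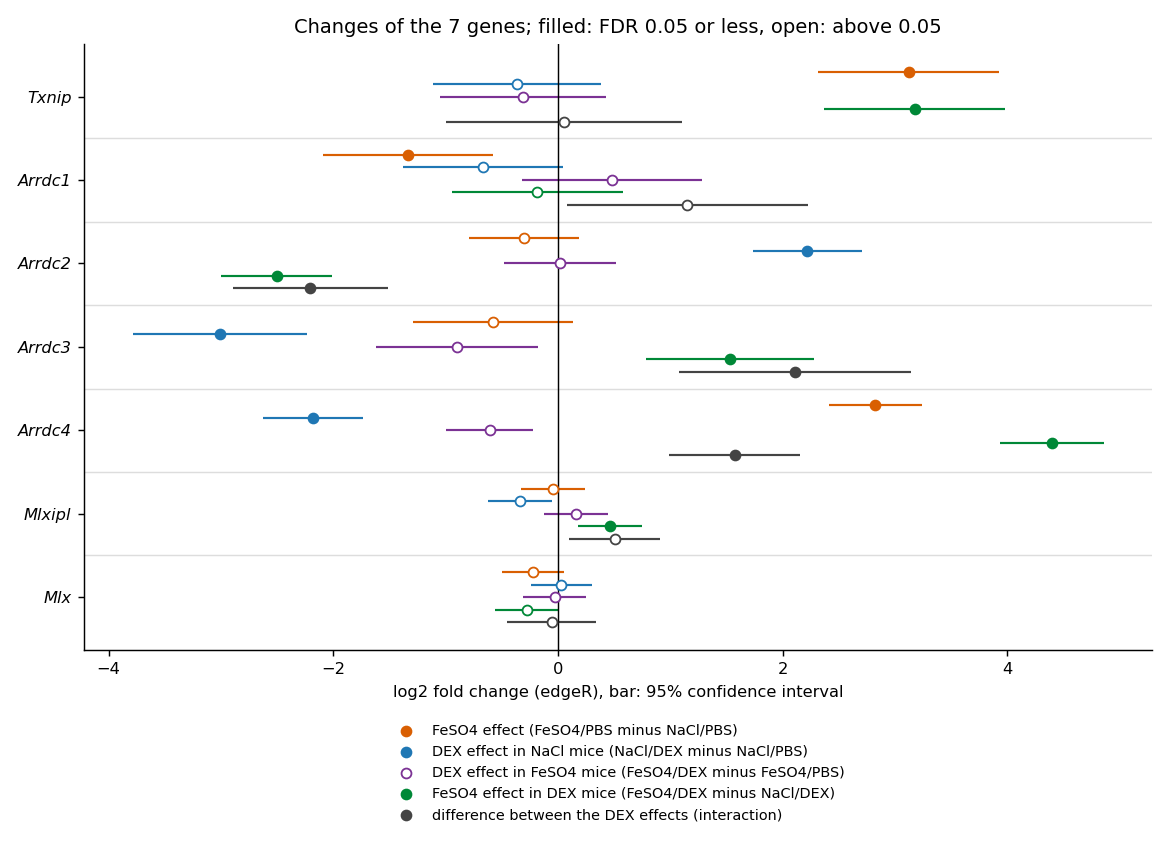
Log2 fold changes from edgeR for the 7 genes in 5 comparisons, with 95% confidence intervals as bars, filled points at an FDR of 0.05 or less and open points above it. The FeSO4 points of Txnip and Arrdc4 lie far to the right, the DEX points of Arrdc3 and Arrdc4 in NaCl mice lie to the left and that of Arrdc2 to the right, and all points for DEX in FeSO4 mice are open.

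Counted over the family, FeSO4 in PBS mice changed 3 of the 7 genes (Txnip and Arrdc4 up, Arrdc1 down), where 54.5% of all tested genes were called, so the count does not stand out from the background. DEX in NaCl mice changed 3 of 7 (Arrdc2 up, Arrdc3 and Arrdc4 down), where 13.7% of all tested genes were called. DEX in FeSO4 mice changed none of the 7 and 0.0% of all tested genes at this FDR, while at an unadjusted edgeR p under 0.05 it was 2 of the 7, Arrdc3 and Arrdc4, against 6.49% of all genes. DESeq2 also called none there, and without a filter on low counts edgeR called both. Scaling by library size alone called all 7 for FeSO4 in PBS mice, with Txnip and Arrdc4 up and the other 5 down. Of all 13857 tested genes, that scaling called 2285 upward and 5829 downward, so downward calls prevailed over all genes too. Among DEX mice FeSO4 changed 5 of 7 (Txnip, Arrdc3, Arrdc4 and Mlxipl up, Arrdc2 down), against 43.3% of all genes, and the DEX effects differed in 3 of 7 (Arrdc2, Arrdc3 and Arrdc4), against 6.18%. The groups did not overlap for 4 genes with FeSO4 in PBS mice (60.0% of all genes), 4 with DEX in NaCl mice (37.9%), 2 with DEX in FeSO4 mice (9.3%) and 5 with FeSO4 in DEX mice (55.9%). The FeSO4 and DEX comparisons share the NaCl/PBS mice, and the interaction uses all 4 groups.

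Levels were compared between genes per length, as RPKM (reads per kilobase of exon, scaled to library size). In NaCl/PBS livers the order of mean levels was Mlxipl (38.3), Txnip (34.9), Arrdc3 (15.8), Mlx (13.2), Arrdc4 (4.78), Arrdc2 (3.87) and Arrdc1 (0.98). Mlxipl and Txnip, Arrdc3 and Mlx, and Arrdc4 and Arrdc2 overlapped between mice. In NaCl/DEX the order was Mlxipl (30.2), Txnip (27.1), Arrdc2 (18.1), Mlx (13.5), Arrdc3 (1.96), Arrdc4 (1.05) and Arrdc1 (0.614), with the first and the second pair overlapping.

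With iron Txnip took the first place. In FeSO4/PBS the RPKM means were 303.8 for Txnip, 37.2 for Mlxipl, 33.8 for Arrdc4, 11.3 for Mlx, 10.6 for Arrdc3, 3.15 for Arrdc2 and 0.391 for Arrdc1, where Mlxipl overlapped Arrdc4 and Mlx overlapped Arrdc3. In FeSO4/DEX they were 244.9, 41.6, 22.2, 11.1, 5.65, 3.18 and 0.546 in the same order of genes, with no neighbors overlapping. The order depended on the length used. By the longest transcript, mean Arrdc3 (14.4) passed Mlx (12.3) in FeSO4/PBS and Arrdc2 (5.52) passed Arrdc4 (4.81) in NaCl/PBS. Overlaps changed as well, so that Mlxipl lay above Arrdc4 in all FeSO4/PBS mice and above Txnip in all NaCl/DEX mice.

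The make-up of the alpha-arrestin transcripts shifted accordingly. The summed RPKM of the 5 alpha-arrestins was 60.3 ± 18.5 (SD, n = 3) in NaCl/PBS livers and 48.8 ± 3.94 with NaCl/DEX, against 351.7 ± 120.7 with FeSO4/PBS and 276.5 ± 73.2 with FeSO4/DEX. Arrdc3 made up 18.7% to 36.0% of this sum in NaCl/PBS mice and 2.67% to 5.23% in NaCl/DEX mice, whereas Arrdc2 went from 4.47% to 8.09% in the former to 27.9% to 42.4% in the latter. Txnip accounted for 47.2% to 69.7% in NaCl/PBS mice, 50.3% to 63.2% in NaCl/DEX mice, 77.3% to 89.1% in FeSO4/PBS mice and 83.4% to 90.9% in FeSO4/DEX mice. A share falls when another gene of the sum rises, so these values describe the mixture and not each gene.

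**Figure D4:**
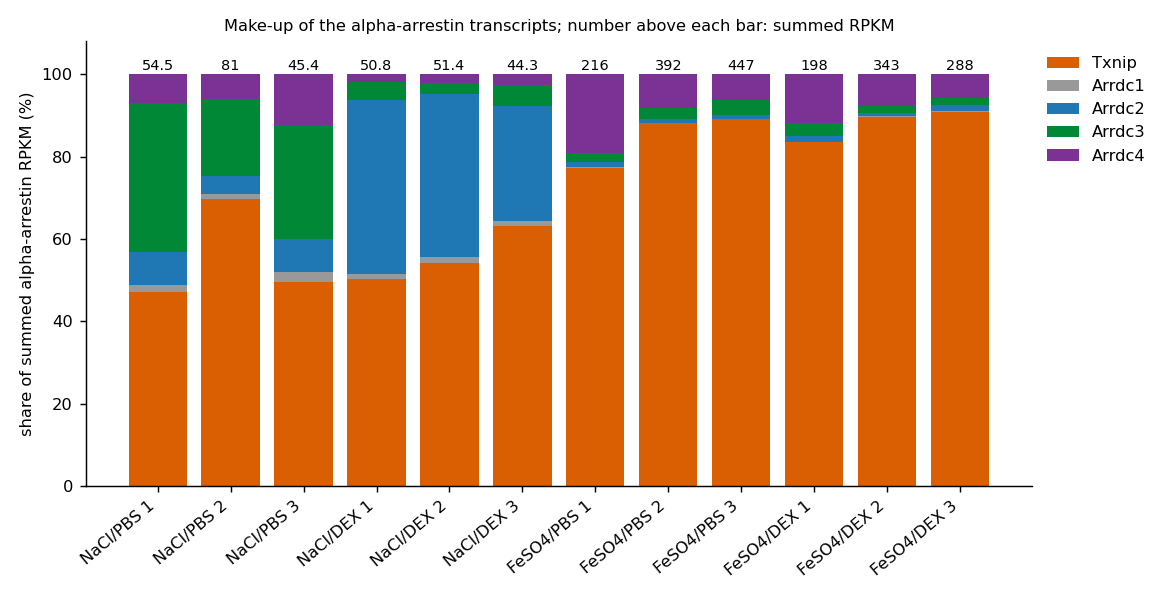
Share of each alpha-arrestin in the summed RPKM of the 5 genes, in percent, with 1 stacked bar per mouse and the summed RPKM above each bar. Arrdc3 (18.7% to 36.0%) has the largest share after Txnip in all NaCl/PBS mice, Arrdc2 (27.9% to 42.4%) in all NaCl/DEX mice, and Txnip fills 77.3% or more of every FeSO4 bar.

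Partners of the family were examined in 6 lists, and their counts are to be read against the 54.5% of all tested genes called for FeSO4 in PBS mice and the 13.7% called for DEX in NaCl mice. Among the other arrestin-fold genes (beta-arrestins and retromer-type relatives), 4 of 5 tested were downregulated and none upregulated by FeSO4 in PBS mice, with a median LFC of -0.76, and Arrb1, a beta-arrestin that desensitizes receptors, had the largest change (LFC = -1.39, edgeR FDR = 2.6e-06). DEX in NaCl mice downregulated 1 of the 5, Arrb1 (LFC = -0.66, edgeR FDR = 0.0049). The remaining alpha-arrestin, Arrdc5, had no read in any library.

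In the MLX and MAX network of E-box binding factors, 4 of 8 tested genes were upregulated and 1 downregulated by FeSO4 in PBS mice (median LFC 0.44), near the share of 54.5% over all genes. Myc, the growth-promoting member, rose by an LFC of 3.58 (edgeR FDR = 6.9e-07), and Mxd4, a repressor that competes for MAX, changed by an LFC of -1.09 (edgeR FDR = 3.5e-06). With DEX, NaCl mice showed higher Myc (LFC = 2.37, edgeR FDR = 0.00013) and Mlxip, which encodes the ChREBP paralog MondoA (LFC = 0.72, edgeR FDR = 0.0067), and lower levels of the repressor gene Mnt (LFC = -1.09, edgeR FDR = 0.0019).

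Of 20 ChREBP target genes, which serve glycolysis, lipogenesis and the hepatic response to sugar, FeSO4 in PBS mice upregulated 10 and downregulated 2, with a median LFC of 0.59 and a share of called genes near the 54.5% of all genes. Fgf21, a fasting and stress hormone of the liver (LFC = 3.61, SE 0.732, edgeR FDR = 0.00088), the lipid droplet protein gene Pnpla3 (LFC = 2.12, SE 0.475, edgeR FDR = 0.0018) and the G-protein regulator Rgs16 (LFC = 1.72, SE 0.233, edgeR FDR = 3.4e-05) rose. Glyctk, a kinase of fructose metabolism, fell (LFC = -1.90, SE 0.126, edgeR FDR = 7.4e-08), and so did the fatty acid elongase Elovl6 (LFC = -1.05, edgeR FDR = 0.0001). Pklr, which encodes liver pyruvate kinase and is the reference target of ChREBP, had an LFC of -0.40 and did not pass (edgeR FDR = 0.11). DEX in NaCl mice upregulated 2 of the 20, Pnpla3 (LFC = 1.85, edgeR FDR = 0.018) and Rgs16 (LFC = 0.90, edgeR FDR = 0.018), and downregulated none.

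Of 8 thioredoxin system genes, FeSO4 in PBS mice upregulated 3 and downregulated none (median LFC 0.23), a smaller share than the 54.5% of all genes, among them Txnrd1, the cytosolic thioredoxin reductase (LFC = 2.34, SE 0.194, edgeR FDR = 4.4e-07), and Txn1, the thioredoxin that TXNIP binds (LFC = 0.51, SE 0.124, edgeR FDR = 0.0031). No gene of the 8 was called for DEX in NaCl mice (edgeR), with a median LFC of 0.03.

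Of 10 NEDD4-family ligases and adaptors tested, FeSO4 in PBS mice upregulated 4 and downregulated 3 (median LFC -0.19), against 54.5% of all genes called, and Nedd4l, a ligase of sodium channels and transporters, rose by an LFC of 2.67 (edgeR FDR = 6.6e-08). Under DEX, NaCl mice had upregulated Nedd4l (LFC = 1.11, edgeR FDR = 0.00051) and Hecw2 (LFC = 1.15, edgeR FDR = 0.01). Of 10 cargo and budding partners, FeSO4 upregulated 4 and downregulated 1 (median LFC 0.25), near the share over all genes, among them Slc2a4, the insulin-regulated glucose transporter gene (LFC = 2.05, edgeR FDR = 0.0028). The glucose transporter gene Slc2a1 was upregulated by DEX in NaCl mice (LFC = 1.16, edgeR FDR = 0.013). The liver glucose transporter gene Slc2a2 is on both the cargo and the ChREBP list.

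The counts of these lists depended on the scaling. After scaling by library size alone, FeSO4 in PBS mice gave 0 up and 5 down for the other arrestin-fold genes, 2 up and 1 down for the MLX and MAX network, 8 up and 4 down for ChREBP targets, 1 up and 2 down for the thioredoxin system, 2 up and 6 down for the NEDD4 family and 2 up and 2 down for cargo, against a median of all genes of -0.34. The median of the thioredoxin list was then -0.09 and that of the cargo list -0.07, both of the opposite sign. The same scaling gave 5 of 5 other arrestin-fold genes downregulated by DEX in NaCl mice.

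None of the genes on the 6 lists was called for DEX in FeSO4 mice (edgeR). As 0.0% of all tested genes were called there, this is not particular to the lists. Myc had an LFC of 1.33 in that comparison (SE 0.276, edgeR FDR = 0.41), while the median of the MLX and MAX network was 0.03. Among the genes reported here, the DEX effects differed for Nedd4l (interaction -1.15, SE 0.234, edgeR FDR = 0.0099) and Rgs16 (-1.44, SE 0.323, edgeR FDR = 0.017). The interaction was called for 6.18% of all tested genes. Among DEX mice FeSO4 changed 43.3% of all tested genes, against which the next counts are to be read. FeSO4 downregulated 3 of 5 other arrestin-fold genes there and upregulated none. It changed the MLX and MAX network with 4 up and 1 down, ChREBP targets with 7 up and 3 down, the thioredoxin system with 3 up and none down, the NEDD4 family with 3 up and 3 down and cargo with 3 up and 1 down.

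The strongest changes of partners by FeSO4 among DEX mice were an LFC of 2.54 for Myc, 1.33 for Mnt, 1.23 for the MAX-binding repressor gene Mga and -1.16 for Mxd4 (edgeR FDR = 1e-05, 0.00011, 0.00039 and 3.1e-06). Among ChREBP targets they were 3.86 for Fgf21, 1.78 for the gluconeogenic gene G6pc1, -1.54 for Glyctk and -1.47 for Elovl6 (edgeR FDR = 0.0025, 0.0048, 5.9e-07 and 8.4e-06). Txnrd1 rose by 2.14, Nedd4l by 1.53 and Slc2a4 by 1.99 (edgeR FDR = 1.4e-06, 7.8e-06 and 0.0069).

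**Figure D5:**
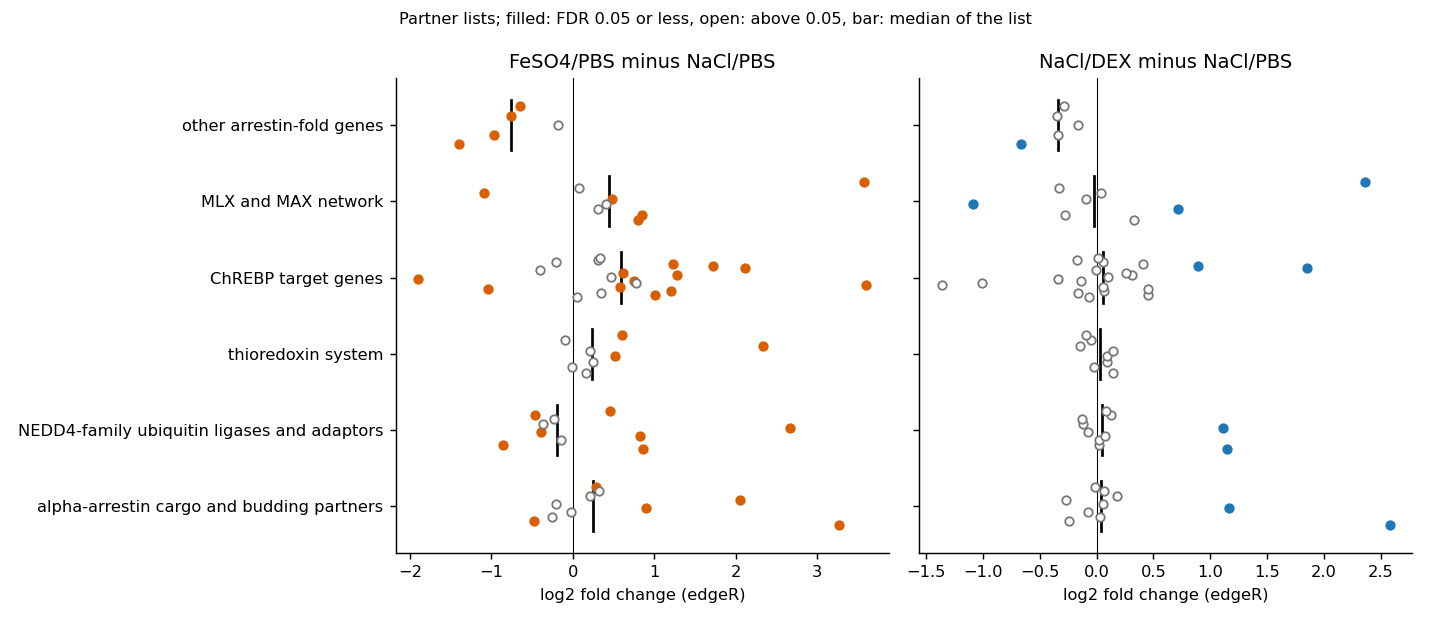
Log2 fold changes from edgeR of each tested gene in the 6 partner lists, for FeSO4 in PBS mice (left) and DEX in NaCl mice (right), with filled points at an FDR of 0.05 or less, open points above it, and a vertical bar at the list's median. The ChREBP target list spreads to both sides with FeSO4 (10 up, 2 down), and the other arrestin-fold genes lie left of 0.

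Markers of several liver cell types moved with iron as well, and their part in these results was not tested. Counts of called markers, here and in the next paragraph, are to be read against all tested genes. Of these, 54.5% were called for FeSO4 in PBS mice and 13.7% for DEX in NaCl mice. None of the 6 hepatocyte markers was at 0, and their summed normalized count was between 1773021 and 2139620 in NaCl/PBS and between 2271612 and 2573594 in FeSO4/PBS, with 4 upregulated. All 8 Kupffer cell and macrophage markers were downregulated by FeSO4 in PBS mice, and their sum was 7660 to 8898 in NaCl/PBS and 3905 to 4598 in FeSO4/PBS. Of 5 tested neutrophil markers 4 were upregulated, and the sum was 112.6 to 284.3 in NaCl/PBS and 675.9 to 792.3 in FeSO4/PBS. The sum of the cholangiocyte markers was 533.3 to 682.6 in NaCl/PBS and 1068 to 1376 in FeSO4/PBS, with 2 of 5 upregulated.

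FeSO4 in PBS mice gave 2 up and 2 down of 6 endothelial markers, 2 up and 1 down of 6 stellate cell markers, 0 up and 1 down of 4 tested lymphocyte markers, 0 up and 1 down of 2 tested mesothelial markers and neither for the 2 tested pancreatic acinar markers, of which Cpa1, Prss2, Pnlip and Ctrb1 were at 0 in all groups. With DEX in NaCl mice, 2 of 6 hepatocyte markers were upregulated, none of the 8 Kupffer markers was called (edgeR), and 1 of 5 neutrophil markers was downregulated, with Ly6g and Ngp at 0 in NaCl/DEX. Scaling by library size alone changed the FeSO4 counts to 1 up of the hepatocyte markers, 1 up of the cholangiocyte markers, 2 up and 4 down of the endothelial markers, 0 up and 1 down of the stellate cell markers and 0 up and 2 down of the lymphocyte markers, and left 8 down of the Kupffer and 4 up of the neutrophil markers. With DEX in NaCl mice it gave 0 hepatocyte markers up and 1 Kupffer marker down.

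For Txnip, Arrdc2, Arrdc3, Arrdc4 and Mlxipl, the 3 genes with the most similar pattern were sought by the root mean square (RMS) difference of gene-centered log2(CPM + 0.5) values over the 12 libraries, which fall into only 4 treatment groups. The nearest to Txnip was Casz1 (RMS 0.367, against a median of 1.66 over all genes), followed by D7Bwg0826e (0.374) and Rrp1b (0.379). Nearness by this measure is not an equal fold change. For FeSO4 in PBS mice the LFCs of these neighbors were 3.84, 6.34 and 3.49, against 3.12 for Txnip. For DEX in NaCl mice they were -0.365, -1.41 and 0.141, against -0.364 for Txnip. Arrdc2 was nearest to Cdc37l1 (0.313), Tm6sf1 (0.345) and Fmo5 (0.356), with a median of 1.10. Arrdc3 was nearest to Rnf186 (0.426), Cd274 (0.489) and Tnfaip2 (0.544), with a median of 1.24. Among these, Cd274 encodes the immune checkpoint ligand PD-L1. Arrdc4 was nearest to Id2 (0.413) and Id3 (0.452), inhibitors of basic helix-loop-helix factors, and to the cytidine deaminase gene Cda (0.46), with a median of 1.95. For Mlxipl the nearest were Asnsd1 (0.108), Glb1 (0.114) and Chrac1 (0.115), with a median of 0.408.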

How the data were processed

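Liver RNA of 12 mice was sequenced from stranded mRNA libraries. The authors deposited raw counts of reads per Ensembl gene for all libraries, and per the labels reads were checked with FastQC and aligned with STAR 2.7.10b to mm39, whose gene counting option gave the counts per the study's methods. Which strand column was taken was not given in the sources used here. The 7 genes and all 16 gene lists (6 partner lists, 9 cell type marker lists and 4 glucocorticoid receptor marker genes) were chosen with earlier results of these data known, so they give no independent support. The partner genes named are those called with an LFC beyond 1, up to 4 per list and comparison, together with the 3 genes nearest in pattern to each of 5 members; 1 gene on the cargo list is not reported here by name. Pklr, Txn1, Arrb1 under DEX, Mlxip, Elovl6 under FeSO4 in PBS mice and Rgs16 under DEX were named after their values were seen.

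Counts were filtered, scaled by TMM and tested with edgeR 4.0.16 (R 4.3.3; quasi-likelihood F test, one mean per group, all 12 libraries, Benjamini-Hochberg adjustment over 13857 genes, call at an FDR of 0.05 or less). SEs were derived from the fold change and F. On simulated counts for 13584 genes, 195 of 200 genes given a large fixed change by DEX in NaCl mice were recovered, with 9 false calls. The changed genes were not drawn from the weakest expressed, and recovery of smaller changes was not tested. DESeq2 1.42.0, other scalings, other filters, a replicate block and leaving out each library were tried as alternatives. RPKM used the union of GENCODE exons. Each library is 1 mouse, and p-values cover the spread between these mice. Protein sequences were not used here.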

Additional observations from a re-analysis of the deposited data

Results flagged for a closer look

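The effect of DEX differed between FeSO4 and NaCl mice for 3 of the 7 genes, by a test of the difference itself (the interaction in edgeR's quasi-likelihood fit with Benjamini-Hochberg adjustment). Over all tested genes, 6.18% were called for this interaction. For Arrdc2 the DEX effect in FeSO4 mice minus that in NaCl mice was -2.20 on the log2 scale (edgeR FDR = 0.0012). For Arrdc3 it was 2.11 (edgeR FDR = 0.018), a call that was lost without NaCl/PBS mouse 1. For Arrdc4 it was 1.57 (edgeR FDR = 0.0036). The signs follow from an induction of Arrdc2 and a repression of Arrdc3 and Arrdc4 by DEX in NaCl mice.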

How the results depend on the processing

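Of the 5 counts of called genes, 2 moved by more than 1.5 times under an alternative with all libraries. Scaling by library size alone called 7 of 7 genes for FeSO4 in PBS mice in place of 3, adding Arrdc2 (-0.62), Arrdc3 (-0.89), Mlxipl (-0.36) and Mlx (-0.54), all downward. Over all 13857 tested genes the same scaling called 2285 upward and 5829 downward. Without a filter on low counts, 2 genes, Arrdc3 and Arrdc4, were called for DEX in FeSO4 mice in place of 0, and the cause was not tested. Smaller moves were 4 in place of 3 for FeSO4 in PBS mice without the filter (Arrdc3 added) and 4 in place of 3 for DEX in NaCl mice with library size alone (Mlxipl added, -0.50), 4 in place of 5 for FeSO4 in DEX mice where an LFC beyond 1 was required, and 2 in place of 3 for FeSO4 in PBS mice with at least 10 counts in every library. Leaving out 1 library gave 3 to 4 called genes for FeSO4 in PBS mice, 3 to 4 for DEX in NaCl mice, 0 to 0 for DEX in FeSO4 mice, 4 to 6 for FeSO4 in DEX mice and 2 to 3 for the interaction. The values that changed sign were all uncalled. Arrdc2 under DEX in FeSO4 mice gave -0.00 with DESeq2 size factors, -0.015 with library size alone and -0.002 in the DESeq2 Wald test. With library size alone Mlx gave -0.12 under DEX in NaCl mice and 0.068 for the interaction. With a library left out, Mlxipl under FeSO4 in PBS mice ran from -0.17 to 0.03, Txnip under DEX in NaCl mice from -0.59 to 0.18, Mlx there from -0.062 to 0.11, Arrdc2 under DEX in FeSO4 mice from -0.28 to 0.15, Mlx there from -0.14 to 0.061, and the interactions of Txnip from -0.50 to 0.28 and of Mlx from -0.19 to 0.032. Of 420 values of single genes with a library left out, 397 kept their direction and their side of the threshold, 3 lost a call, 5 gained one and 15 changed sign. Arrdc1 was not tested under that minimum.

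Replicate numbers gave no clear sign of pairing: same-numbered mice of different groups had correlations of their deviations between -0.11 and 0.15. For mice with other numbers the range was -0.205 to 0.162. With 3 mice per group this check cannot exclude pairing. With the replicate block, 3, 3, 0, 5 and 3 genes were called in the 5 comparisons, as without it, and only the interaction of Txnip changed sign (-0.024). Arrdc1, with 9.16 to 60.9 normalized counts per mouse, rests on the fewest reads. For Txnip, with SEs of 0.348 and 0.346 for DEX, small DEX effects were not detectable with 3 mice per group.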
